A study of Gallus gallus with 41 samples.

Results

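Kinesins and cytoplasmic dynein are the motor proteins that walk along microtubules. Their genes were followed through single chick retinal cells by taking every gene whose symbol begins with KIF or KIFC and a number, KLC, DYNC, DYNL or DCTN. This gave 54 genes of 13009 with a single symbol on the array, read from 133 probe sets. Each gene was read from the probe set of highest mean over all cells. The genes comprised 11 kinesins of the spindle and of cytokinesis, 13 transport kinesins, 2 kinesin light chains, 5 subunits of cytoplasmic dynein 1, 5 dynein light chains, 2 subunits of dynein 2, 5 of dynactin and 11 others. One of the others, KIF1BP, encodes a protein that binds kinesins and is no motor itself. The sources name no embryo, strain or treatment. The cells came from dissociated chick retina without culture, 1 cell to an array, at embryonic days 3 (E3, 6 cells), 4 (3 cells), 5 (5 cells), 6 (10 cells), 7 (1 cell), 9 (6 cells), 14 (8 cells) and 15 (2 cells), 41 in all. A cell was not chosen by type as far as the labels say, so an age can mix dividing and neuronal cells.

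Most kinesins move toward the plus ends of microtubules and cytoplasmic dynein toward the minus ends. In a dividing cell, KIF11 slides the poles of the spindle apart, KIF15 assists it, and KIF4, KIF20A and KIF23 act at the midzone where the cell is cut into daughters. A neuron no longer divides and uses other kinesins on the microtubules of its axon: KIF5 (kinesin-1) carries vesicles and mitochondria outward, and KIF21A is a kinesin of developing axons. In the early retina, progenitors divide next to neurons that have just left the cell cycle, of which the retinal ganglion cells are among the first and send axons to the brain.

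Values below are log2 signals, with everything under the table's median raised to that median, 5.0 (the floor). A gene is called detected where its signal reached the 80th percentile of the cell's array, and a value at the floor does not show that a transcript was absent. Because no embryo is named, the cells of an age were treated as 1 sample: SDs over cells describe their spread, and a difference between 2 ages has no test. On 6 arrays (the 3 E4 cells, E6 replicate 7 and both E15 cells) the median signal lay between log2 6.82 and 7.88, against 3.90 to 5.50 on the other 35. Low values on those 6 arrays are raised, and E4 and E15 hold no other cells. The median cell had 19 of the 54 genes detected. The threshold fixes the share of all probe sets detected on each array. The genes were read from their probe sets of highest mean, so this count is not compared with that share. Since probe sets differ in how they bind, levels are compared between cells and never between genes.

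The heavy chain of dynein 1 was detected through the whole age range, but the other dynein 1 subunits were each detected in fewer cells. DYNC1H1, the heavy chain that holds the motor of dynein 1, was detected in 40 of 41 cells, and the exception was E15 replicate 3 with 6.24. Its means were 14.99 ± 1.19 at E3, 14.88 ± 0.76 at E5, 14.46 ± 2.36 at E6, 14.64 ± 0.41 at E9 and 15.40 ± 0.36 at E14 (SD over 6, 5, 10, 6 and 8 cells). In this probe set these ages overlap throughout. Another probe set of DYNC1H1, detected in 39 cells, correlated with it at r = 0.54. Its means were lower early, at 12.99 at E3 and 11.79 at E4. They were 14.69 at E5, 14.37 at E6, 14.34 at E9 and 14.86 at E14, so a level course rests on the first probe set. DCTN3 and DCTN6, subunits of the dynactin complex that couples dynein to cargo, were detected in 38 and 36 cells. DCTN3 lay between 7.08 and 14.80 in the E6 cells and between 13.03 and 15.11 in the E3 cells. At the other end, 6 of the 54 genes were detected in at most 2 cells: KIF27 and KIF20AL in 0, KIF2B, KIF13B and KIF18A in 1 each, and KIF14 in 2. The remaining 48 passed the filter of detection in at least 3 cells and entered the test. Of the 38535 probe sets on the array, 24981 passed the same filter, with controls left out. That share counts every probe set, while each gene was read from its probe set of highest mean.

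**Figure D1:**
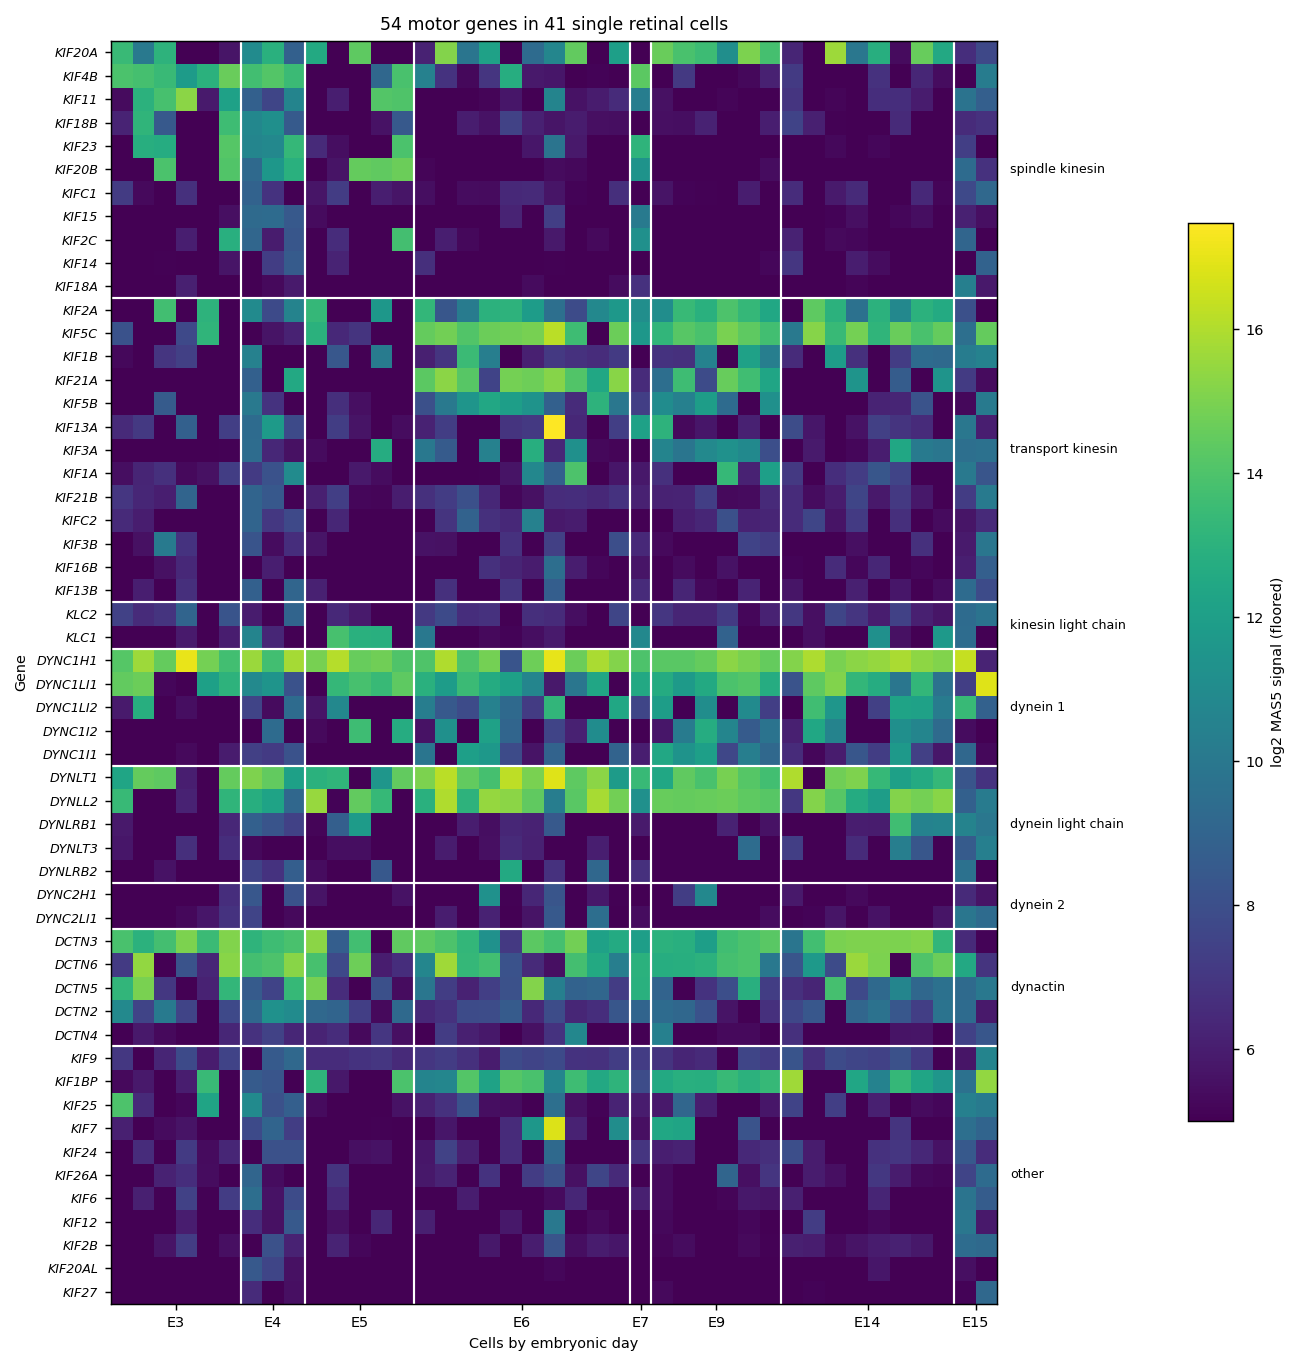
Floored log2 signal of the 54 genes (down the page, by class and then by the number of cells in which each was detected) in 41 cells (across, by embryonic day). DYNC1H1 is bright in nearly every column, several spindle kinesins are bright mainly at E3 to E5 and in the E7 cell, and KIF5C and KIF21A are bright in the E6 and E9 columns.

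Between E3 and E6 the set moved in both directions. At E6, 7 of the 48 tested genes had a mean at least 3 log2 units above that at E3 (14.6%, against 5.89% of the 24981 probe sets tested): KIF21A, KIF5C, DYNLL2, KIF1BP, KIF5B, DYNLT1 and KIF2A. A further 3 were at least 3 units lower at E6 (6.25%, against 3.02% of all): KIF4B, KIF11 and KIF23. Just inside the size chosen stood KIF2A at 3.17 and KIF23 at -3.47, and just outside it KIF3A at 2.98, KIF20B at -2.92 and KIF18B at -2.80. The median difference was -2.80 over the 9 tested spindle kinesins, of which 7 were below 0. It was 1.50 over the 12 tested transport kinesins, of which 11 were above 0. Over all 24981 probe sets tested it was 0.27, with 15795 above 0 and 9178 below. KIF2A, which takes microtubule ends apart, was counted in the transport class, and KIF2C, which does the same, in the spindle class. The count of 7 became 11 with no floor, 4 with a floor at the highest array median and 3 with all probe sets of a gene averaged. That last count is 6.25% of the 48 genes, near the 5.89% of all probe sets. The count of 3 lower genes became 5 without E3 replicate 1, 4 or 5 or with arrays scaled to a common 75th percentile. Here and below, a gene counts through its probe set of highest mean, while the share of all counts every tested probe set. These shares are therefore not fully alike. All the E6 cells lay above all the E3 cells for 1 gene, KIF21A, where 0.749% of all probe sets separated that way. For 0 genes did all the E6 cells lie below the E3 cells, against 0.2% of all.

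**Figure D2:**
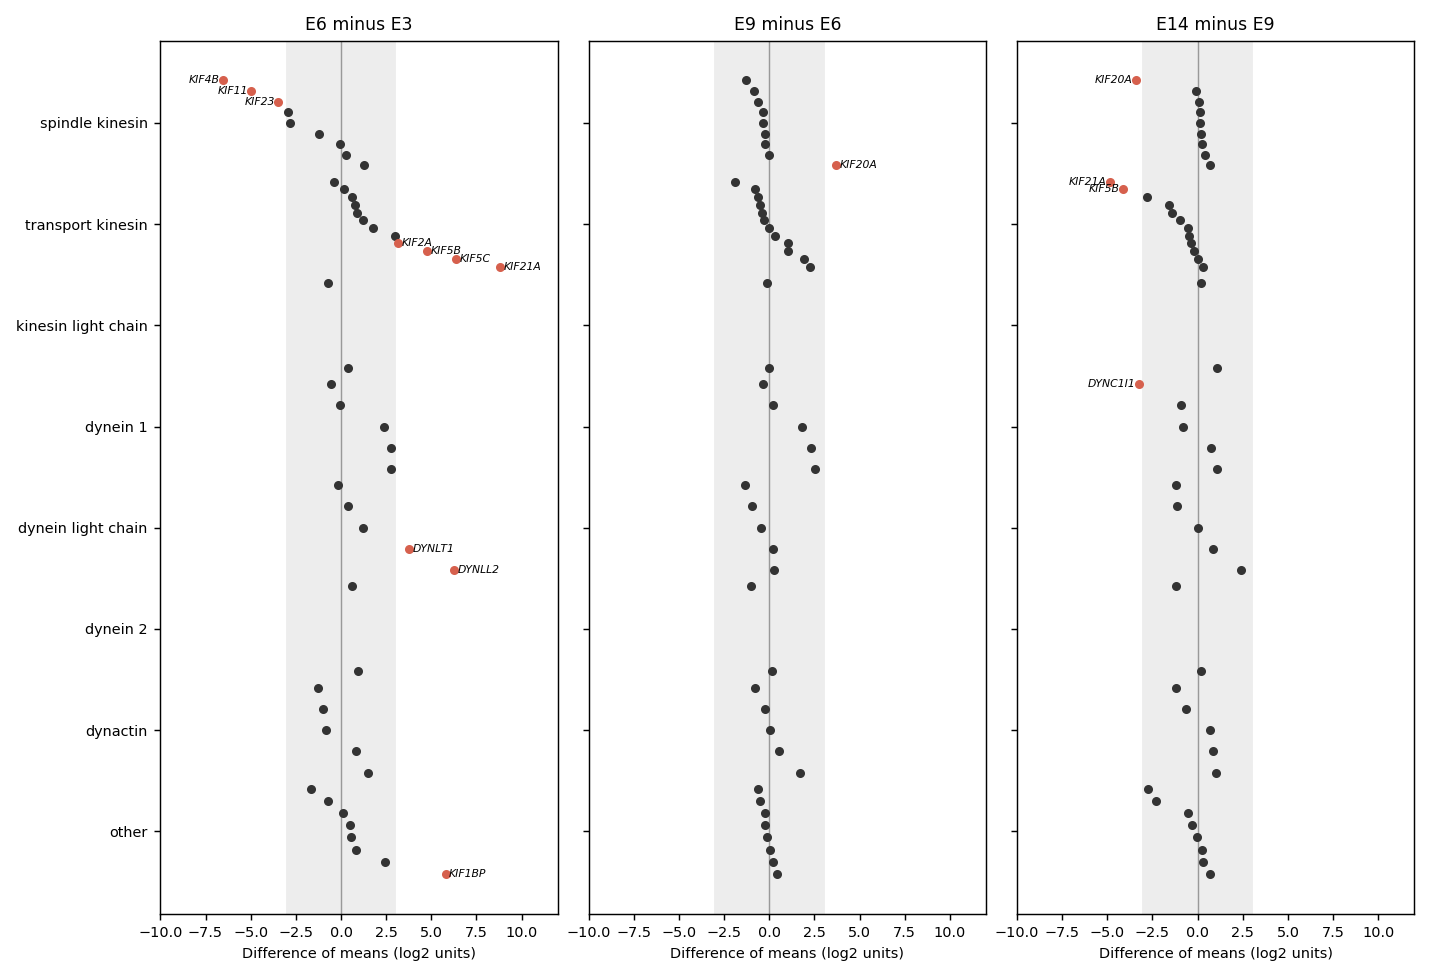
Difference of mean floored log2 signal between neighbouring large groups of cells, E6 minus E3, E9 minus E6 and E14 minus E9, for the 48 tested genes by class. Each point is a gene, the grey band spans 3 log2 units either side of 0, and genes outside it are named. In the first panel 7 of 9 spindle kinesins lie below 0 and 11 of 12 transport kinesins above it. Of all 24981 probe sets tested, 15795 lay above 0 for that step and 9178 below. Points outside the band in the third panel are all lower at E14, where 1245 of all probe sets were that much lower and 302 higher.

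Some other measures moved with the same step. The mean of 9 markers of dividing cells was 7.01 at E6 (5.42 to 8.62 per cell) and 10.20 at E3 (6.88 to 12.20). That of 10 markers of retinal neurons was 11.31 at E6 (10.48 to 11.95) and 5.98 at E3 (5.13 to 8.17). The mean of 8 markers of retinal progenitors hardly differed, at 7.46 at E6 (6.48 to 8.87) and 7.60 at E3 (6.64 to 9.09). It was 12.73 at E4, on arrays of high median. Within that list PAX6 differed between E6 and E3 by 6.58 and NES by -8.47. The gap between the 3′ and 5′ probe sets of the actin gene ACTB was 1.95 ± 1.55 log2 units at E6 and 6.65 ± 1.98 at E3 (10 and 6 cells); such a gap is used as a measure of RNA quality. The mean of 2 red blood cell genes ranged over the cells from 5.0 to 6.43 at E6 and from 5.05 to 16.78 at E3. The part of these measures in the motor differences was not tested.

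Among the spindle kinesins, KIF4B showed the widest E6 to E3 difference. RefSeq gives this gene the synonym KIF4A, and the KIF4 kinesin organises chromosome arms and the spindle midzone. Its lowest, median and highest values were 5.0, 5.81 and 12.79 in the 10 E6 cells, against 11.86, 13.63 and 14.62 in the 6 E3 cells. The groups overlapped through E6 replicate 5, the cell at 12.79, and the next E6 cell was E6 replicate 1 at 10.45, whose source name places it at E5 while its title says E6. The mean was 6.90 ± 2.64 at E6 and 13.44 ± 0.95 at E3, a difference of -6.53. The 3 E4 cells had 13.71, 14.15 and 13.52, the 5 E5 cells 5.0, 5.0, 5.0, 9.16 and 13.88, and the E7 cell 14.32. KIF4B was thus high in every E3 and E4 cell and split the E5 cells. It reached at most 7.07 at E9 and 7.13 at E14, and the E15 cells had 5.02 and 10.26.

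KIF11, the kinesin that pushes spindle poles apart, was less uniform at E3. It had a lowest value of 5.0, a median of 5.40 and a highest of 10.62 in the E6 cells, against 5.37, 12.58 and 15.30 in the E3 cells. High values stood in 4 of the 6 E3 cells, at 12.13 to 15.30, and the only E6 cell above 7 was E6 replicate 7, on an array of high median. The mean was 5.97 ± 1.71 at E6 and 10.93 ± 4.23 at E3, a difference of -4.96 with overlapping cells. KIF11 had 8.82, 7.61 and 10.62 in the E4 cells, 5.0, 6.04, 5.0, 14.12 and 14.06 in the E5 cells, 10.27 in the E7 cell, and 9.74 and 8.76 in the E15 cells. Its highest value was 5.58 at E9 and 6.95 at E14. KIF11 was detected in 14 cells in all, 3 of them E14 cells with values under 7.

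KIF23, a kinesin of the central spindle needed for the last step of cytokinesis, gave an on or off picture in its probe set of higher mean. Its E6 cells ran from 5.0 over a median of 5.0 to 9.79, against 5.0, 8.86 and 14.17 in the E3 cells. Of the E3 cells, 3 were at 12.72 to 14.17 and 3 at the floor. The difference of means was -3.47, from 5.64 ± 1.49 at E6 and 9.12 ± 4.54 at E3. KIF23 had 10.68, 10.83 and 13.29 in the E4 cells, 13.95 in E5 replicate 5 and at most 6.501 in the other E5 cells, and 13.11 in the E7 cell. All 6 E9 cells were at the floor, and no E14 cell passed 5.26.

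KIF20B, a relative of KIF20A that also acts in cytokinesis, was at 13.92 and 14.10 in 2 E3 cells and at the floor in the other 4. In the E5 cells it had 5.0, 5.65, 14.51, 14.43 and 14.66. It was detected in 0 of 10 E6 cells (exact 95% interval 0 to 30.8%), 0 of 6 E9 cells and 0 of 8 E14 cells, and stood at 11.40 in the E7 cell. KIF15, which helps KIF11 hold spindle poles apart, was detected in 3 cells: E4 replicate 1 with 9.30, E4 replicate 2 with 9.39 and the E7 cell with 10.10. All other cells had at most 8.49, and the E3 cells at most 5.51. In this probe set KIF15 therefore contributes little to the contrast between E3 and E6: its means were 5.37 ± 0.79 at E6 and 5.09 ± 0.21 at E3. A second probe set of KIF15, described below, had 12.92 and 13.17 in E3 replicates 1 and 3. Of the remaining spindle kinesins, KIF18B was detected in 10 cells, KIFC1 in 4 and KIF2C in 3. These 3 were named after their values were seen. KIF2C, which takes microtubule ends apart, had 12.88, 13.76 and 11.24 in its 3 cells: E3 replicate 6, E5 replicate 5 and the E7 cell. The further probe sets of KIF2C correlated with this one at 0.35, 0.04 and 0.57, and all were at the floor in the E7 cell.

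KIF11, KIF4B and KIF20B each had at least 1 further probe set that followed the first closely. Over the 41 cells, the 2 probe sets of KIF11 correlated with r = 0.94. Those of KIF4B correlated with r = 0.95 for its second probe set and 0.20 for another. KIF20B had 2 of 4 further probe sets at r = 0.92 and 0.98 and the other 2 at 0.25 and 0.31. These correlations describe probe sets on shared arrays. A second probe set of KIF15, detected in 4 cells, had means of 7.77 at E3 and 5.15 at E6 and 11.26 in the E7 cell, and correlated with the first at 0.41. The second probe set of KIF23, detected in 3 cells, correlated with the first at 0.62. Its means were 7.57 at E3, 5.06 at E4 and 5.06 at E6, and the E7 cell was at the floor. The high E4 and E7 values of KIF23 thus rest on 1 probe set of 2.

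**Figure D3:**
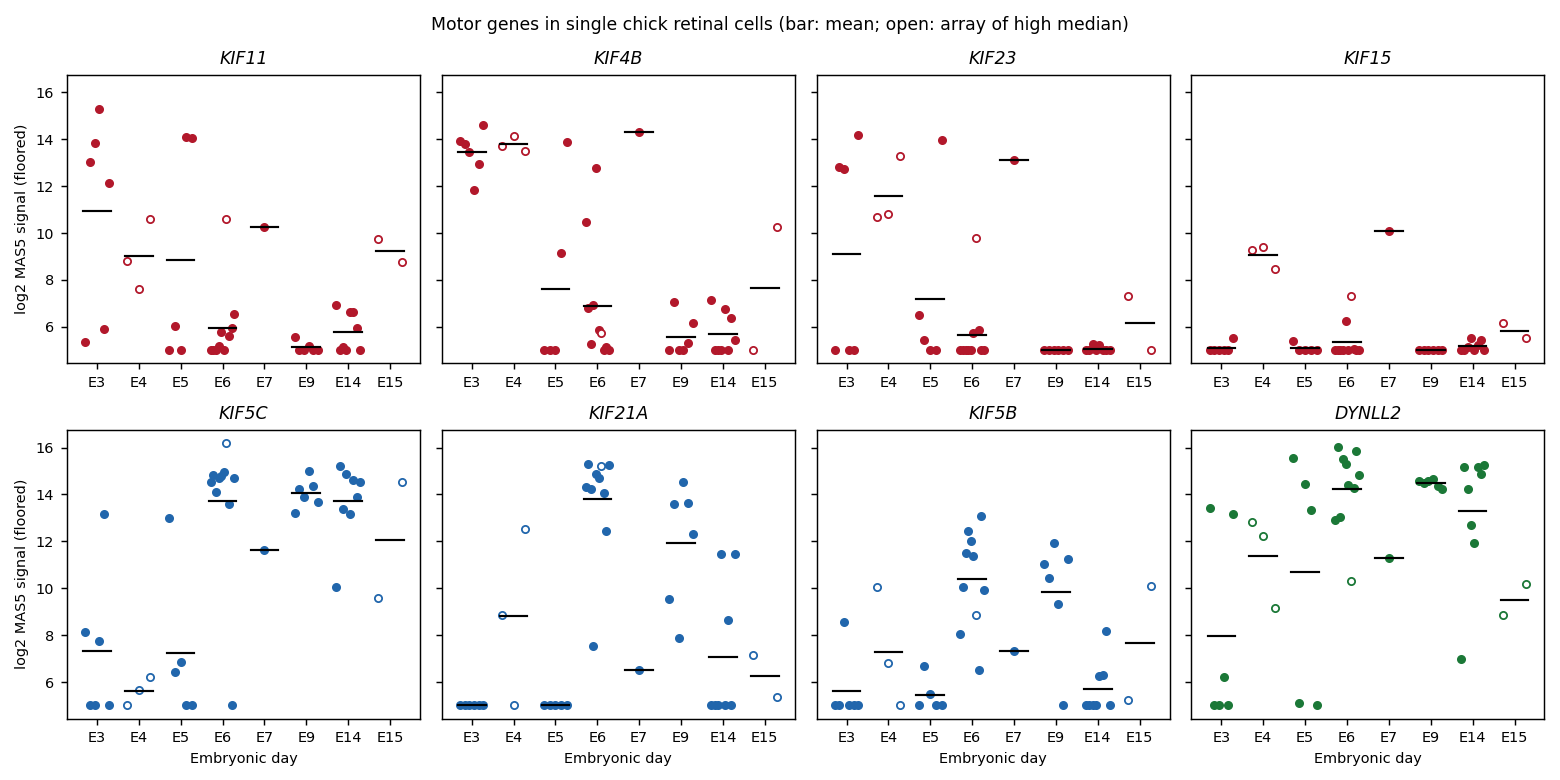
Floored log2 signal of 8 genes in each cell by embryonic day; bars are means and open circles mark the 6 arrays of high median. The upper panels hold spindle kinesins. KIF11, KIF4B and KIF23 are high in cells of E3 to E5 and E7, while KIF15 is near the floor at E3 and E5. The lower panels hold KIF5C, KIF21A and KIF5B, higher in most E6 and E9 cells than in E3 cells, and the dynein light chain DYNLL2.

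KIF20A, a kinesin of the spindle midzone, was chosen as a motor of dividing cells, and in the probe set of higher mean the data went against that label. It was detected in 25 cells. All 6 E9 cells were high, with a lowest value of 11.16, a median of 13.86 and a highest of 15.04, against 5.0, 10.30 and 15.14 in the E6 cells. The difference E9 minus E6 was 3.68, from 13.68 ± 1.35 at E9 and 10.001 ± 3.66 at E6. KIF20A was the only one of the 48 tested genes at least 3 units higher at E9 (2.08%, against 1.75% of all probe sets), and 0 were that much lower (0.384% of all). At E14 it had 5.0, 11.23 and 15.62, and its mean was 10.27 ± 4.25, a difference of -3.41 from E9. The E7 cell, with 6 spindle kinesins detected, was at the floor for KIF20A. Its signal correlated with that of KIF11 at r = -0.42 over the 41 cells.

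The other probe set of KIF20A gave another pattern. It was detected in 8 cells, 4 of which the first probe set shared, and the 2 correlated at r = -0.25. Its means were 8.25 at E3, 9.43 at E4, 8.79 at E5, 5.31 at E6, 12.46 in the E7 cell, 5.0 at E9 and 5.23 at E14. In the first probe set the E9 mean was the highest of all ages, and in the other every E9 cell was at the floor. The label of KIF20A as a gene of dividing cells was met by the other probe set only. Which probe set reports the KIF20A transcript was not tested, since the probe sequences were not used here.

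**Figure D4:**
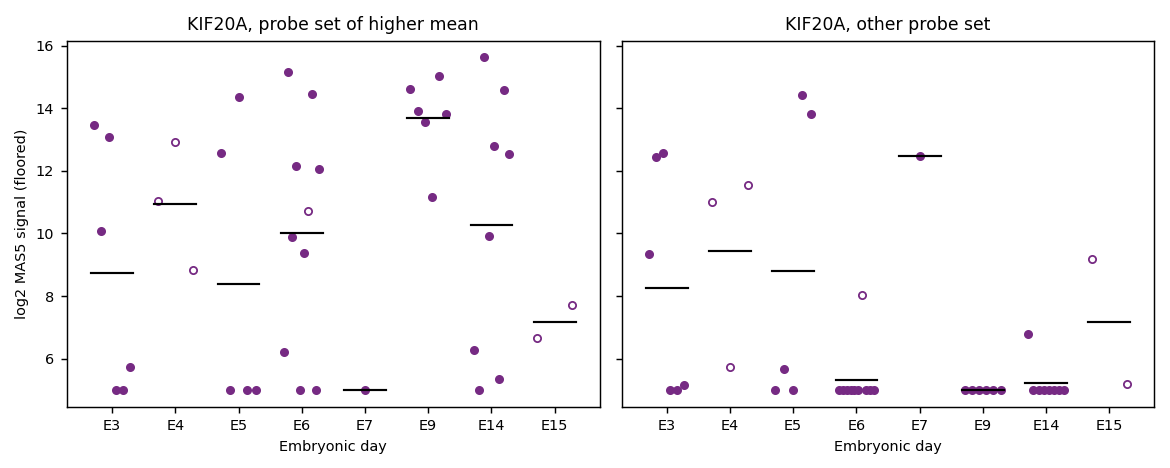
Floored log2 signal of KIF20A in each cell by embryonic day, from the probe set of higher mean (left) and from the other probe set (right); bars are means and open circles mark arrays of high median. All 6 E9 cells are above 11 on the left and at the floor on the right, and the E7 cell is at the floor on the left and at 12.46 on the right.

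Among the transport kinesins, KIF21A had the cleanest step. Its lowest, median and highest values were 7.52, 14.51 and 15.28 in the E6 cells, and every E3 cell was at the floor of 5.0. All 10 E6 cells were above all 6 E3 cells, and the lowest, E6 replicate 4, stood apart from the other 9 at 12.42 or more. The means were 13.79 ± 2.36 at E6 and 5.0 at E3, a difference of 8.79 that the floor bounds from below. KIF21A was detected in 10 of 10 E6 cells (exact 95% interval 69.2 to 100%) and in 0 of 6 E3 cells (0 to 45.9%). Such intervals cover counting error only. All 5 E5 cells were at the floor too, and the E4 cells had 8.85, 5.0 and 12.55.

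KIF21A was lower again at E14. The E9 cells had 7.87, 12.96 and 14.55, against 7.52, 14.51 and 15.28 in the E6 cells. In the 8 E14 cells the lowest value and the median were 5.0 and the highest was 11.45, so that 5 cells were at the floor. The means were 7.07 ± 2.98 at E14 and 11.91 ± 2.64 at E9, a difference of -4.85 with overlapping cells. The E7 cell had 6.53 and the E15 cells 7.17 and 5.36. The second probe set of KIF21A correlated with the first at r = 0.66 and averaged 5.18 in E3 cells, 10.52 in E6 cells, 11.83 in E9 cells and 5.41 in E14 cells, so that its highest mean was at E9 and not at E6.

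KIF5C, the kinesin-1 heavy chain enriched in neurons, was high in nearly all cells of E6, E9 and E14. Its lowest, median and highest values were 5.0, 14.69 and 16.20 in the E6 cells, against 5.0, 6.37 and 13.16 in the E3 cells. The groups overlapped through E6 replicate 9, which was at the floor while the other 9 had 13.61 or more. In the E3 cells only E3 replicate 5, at 13.16, was above 9. The difference was 6.39, from 13.74 ± 3.14 at E6 and 7.34 ± 3.20 at E3. The E4 cells had 5.0, 5.66 and 6.22 and the E5 cells 12.98, 6.43, 6.88, 5.0 and 5.0. Means were 14.06 ± 0.61 at E9 and 13.72 ± 1.64 at E14, the E7 cell had 11.61 and the E15 cells 9.57 and 14.52. The other 3 probe sets of KIF5C were detected in 3, 3 and 2 cells and correlated with it between -0.17 and 0.13, so the pattern rests on 1 probe set of 4.

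KIF5B, the kinesin-1 heavy chain found in most tissues, was at E6 like KIF5C but not at E14. Its values were 6.51, 10.73 and 13.06 in the E6 cells, against 5.0, 5.0 and 8.56 in the E3 cells, where 5 of 6 were at the floor. The means were 10.38 ± 2.09 at E6 and 5.60 ± 1.45 at E3, a difference of 4.78. At E14 the values were 5.0, 5.0 and 8.18, against 5.0, 10.74 and 11.95 at E9. The means were 5.72 ± 1.15 at E14 and 9.84 ± 2.52 at E9, a difference of -4.12, and the cells overlapped through E9 replicate 5 at the floor. The other 2 probe sets of KIF5B correlated with it at 0.09 and 0.11. One of them had a mean of 8.11 at E14 and 7.69 at E9, so they did not share the lower E14 level. Nor did they show an E6 step of that size: their means were 5.28 and 5.22 at E3 and 6.12 and 5.85 at E6.

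KIF2A, which takes microtubule ends apart and trims axon branches in mice, was detected in all 10 E6 cells at 7.85 to 13.26 with a median of 11.25. At E3 it was at 13.72 and 13.05 in 2 cells and at the floor in 4. Its difference was 3.17, from 10.96 ± 1.96 at E6 and 7.80 ± 4.33 at E3, and its other probe set was detected in 1 cell. KIF21B, the closest relative of KIF21A, did not share its step: its difference between E6 and E3 was 0.18, and it was detected in 14 cells. KIF5A was not analysed here. The other transport kinesins had differences between E6 and E3 of -0.41 (KIF3B) to 2.98 (KIF3A). KIF3A, part of kinesin-2, was detected in 6 of 6 E9 cells at 7.99 to 11.29 and in 0 of 6 E3 cells, which had at most 5.09. The further probe sets of KIF3A correlated with this one at only 0.22 and 0.21. Their means were 6.41 and 6.15 at E3, 5.61 and 5.52 at E6, and 5.67 and 5.57 at E9, so neither shared the step. KIF3A and KIF3B were named after their values were seen.

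Subunits that travel with the motors divided into those with an age step and those without. DYNLL2, a light chain of dynein that also binds other proteins, had 10.30, 14.62 and 16.01 in the E6 cells, against 5.0, 5.61 and 13.41 in the E3 cells. It passed the detection threshold in all 10 E6 cells and in 2 of 6 E3 cells, and the difference was 6.28 (14.24 ± 1.75 at E6 and 7.96 ± 4.14 at E3). Its E9 cells lay within 14.24 to 14.65. DYNLT1, a light chain of another family, had 11.86, 14.99 and 16.85 in the E6 cells, against 5.0, 13.36 and 14.54 in the E3 cells, with a difference of 3.76. Of the E3 cells of DYNLT1, 4 were above 12, so the step rests on the 2 at the floor and near 6. The second probe sets of both correlated with the first, at r = 0.93 for DYNLL2 and 0.99 for DYNLT1.

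DYNC1I1, the intermediate chain of dynein 1 known as the neuronal form in mammals, was detected in 0 of 6 E3 cells and 0 of 5 E5 cells. It had 5.0, 8.41 and 12.06 in the E6 cells, where 5 of 10 were detected, and 7.66, 10.87 and 12.49 in the E9 cells, where 6 of 6 were. At E14 it had 5.24, 6.90 and 11.69, and the means were 7.27 ± 2.05 at E14 and 10.52 ± 1.84 at E9, a difference of -3.25. The cells of both ages overlapped. The other probe set of DYNC1I1 was detected in 0 cells and correlated with the first at -0.02, so the pattern rests on 1 probe set of 2. The light chain DYNLT3 was near the floor at most ages and high in few cells. Its highest value was 10.34 in the 8 E14 cells and 9.41 in the 6 E9 cells, in E9 replicate 5. The E15 cells, which lie on arrays of high median, had 10.41 and 8.58. The other probe set of DYNLT3 was detected in 3 cells, 0 of them shared, and correlated with the first at -0.02.

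KIF1BP binds kinesins and is needed for axon growth in mice and zebrafish. It had 10.64, 12.82 and 14.19 in the E6 cells, against 5.0, 5.59 and 13.47 in the E3 cells. Only E3 replicate 5, at 13.47, reached the E6 range, and the difference was 5.79. At E9 it lay between 12.60 and 13.42 and at E14 between 5.0 and 15.70. Its other 2 probe sets were detected in 0 cells. The kinesin light chains, which join kinesin-1 to cargo, had no such step: the difference between E6 and E3 was 0.37 for KLC1 and -0.73 for KLC2. KLC1 was detected in 9 cells and KLC2 in 18. The dynein 2 subunits of cilia, DYNC2H1 and DYNC2LI1, were detected in 4 and 3 cells.

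From E9 to E14, wide differences ran mostly downward over the whole array: 1245 probe sets were at least 3 units lower at E14 and 302 higher. The motor genes with wide differences were all lower at E14 too. The set as a whole was balanced, with 22 genes above 0, 25 below and a median difference of -0.05. At E14, 4 of the 48 genes were at least 3 units below E9 (8.33%, against 4.98% of all probe sets): KIF21A, KIF5B, KIF20A and DYNC1I1. KIF20A counts here through its probe set of higher mean, and in the other every E9 cell was at the floor. None, 0 of 48, was that much higher (1.21% of all). The median difference of E14 minus E9 was -0.76 over the 12 transport kinesins, 10 of them below 0. It was 0.13 over the 9 spindle kinesins, 7 of them above 0. Over all probe sets it was 0.10, with 13926 above 0 and 10947 below. The mean of the 2 red blood cell genes was 11.39 at E14 (6.25 to 15.45 per cell) and 5.93 at E9 (5.02 to 7.74). The ACTB gap was 3.08 ± 0.80 at E14 and 1.27 ± 0.53 at E9. Their part in these differences was not tested. The count of 4 became 2 without E14 replicate 2 or after quantile normalization, and 1 with the floor at the highest array median or with all probe sets averaged. Neighbouring steps share the E6 or the E9 cells, so a chance high value there lowers the step after it and raises the one before it.

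The slope over all ages was the only test. It was fitted with limma to the 8 age means on embryonic day, weighted by their cells, with Benjamini-Hochberg adjustment over 24981 probe sets. Of the 48 genes, 0 rose past an adjusted p of 0.05, where 0.132% of all probe sets did, and 0 fell, where 0% did. At an unadjusted p under 0.05, 2 had positive slopes (4.17%, against 3.52% of all), KIF5C and DYNLT3. Another 2 had negative slopes (4.17%, against 1.16% of all), KIF4B and KIF23. KIF5C had a slope of 0.51 ± 0.17 log2 units per day (SE, limma adjusted p = 0.382), and without the E6 cells 0.63 with an adjusted p of 0.0417. Over the other alternatives the slope per day of KIF5C ran from 0.15, with its 4 probe sets averaged, to 0.68 without E14, and its limma adjusted p from 0.2195 without E15 replicate 2 to 0.9999. KIF4B had -0.50 ± 0.17 (limma adjusted p = 0.373), KIF23 -0.33 ± 0.14 (adjusted p = 0.797) and DYNLT3 0.17 ± 0.07 (adjusted p = 0.770). KIF21A, high at E6 and E9 and lower before and after, had a slope of -0.04 ± 0.17, and its sign turned under 7 of the alternatives. A straight line cannot show such a course. KIF11 had -0.28 ± 0.15, KIF15 -0.06 ± 0.09 and KIF20A 0.08 ± 0.17, each with an adjusted p of 0.9999 by limma.

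The contrast of dividing against neuronal motors was taken in each cell as the mean of KIF11, KIF15 and KIF20A minus the mean of KIF5C and KIF21A. Its genes were chosen with earlier results of these data known, so it is a description and no independent result. Probe sets bind unequally, so its level has no meaning and only its change between cells is read. It averaged 2.07 ± 3.26 at E3, 2.45 ± 2.37 at E4, 1.31 ± 2.03 at E5, -6.65 ± 2.03 at E6, -0.61 in the E7 cell, -5.05 ± 1.81 at E9, -3.32 ± 2.58 at E14 and -1.73 at E15. Most of the change lay in the neuronal motors, whose mean was 13.77 ± 2.17 at E6 and 6.17 ± 1.60 at E3. The mean of the dividing motors was 7.11 ± 1.44 at E6 and 8.25 ± 1.79 at E3. That mean joins KIF11, whose difference between E6 and E3 was -4.96, with KIF15 at 0.28 and KIF20A at 1.28. KIF4B and KIF23, both at least 3 units lower at E6, are not part of it. Between -9.15 and -3.39, the E6 cells overlapped the E3 cells only through E3 replicate 5 at -3.77, the cell with KIF5C at 13.16 and KIF11 at 5.92. Without that cell the E3 mean was 3.24, and without E3 replicate 3 it was 1.36. With all probe sets of a gene averaged, the E6 mean was -3.65 and the E14 mean -0.74. With KIF20A read from its other probe set, an alternative chosen after the data were seen, the means were 1.92 at E3, -8.22 at E6, 1.87 in the E7 cell, -7.94 at E9 and -4.997 at E14.

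**Figure D5:**
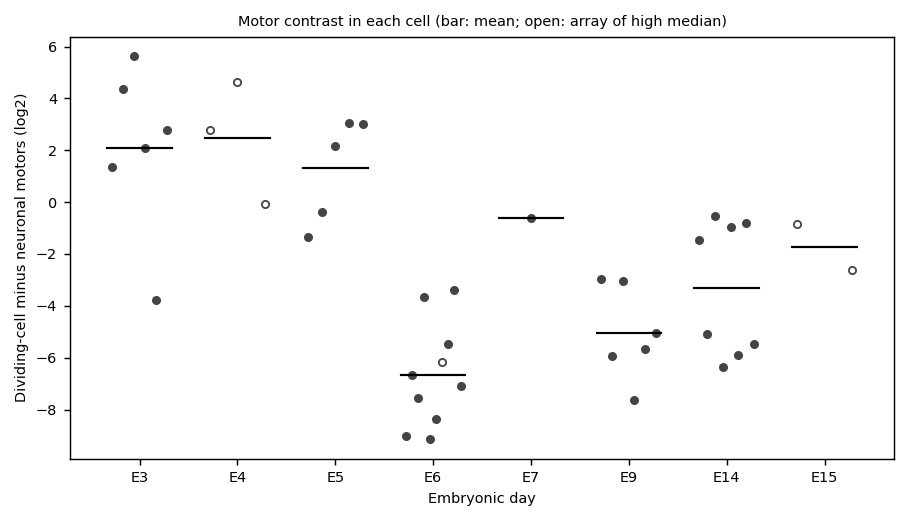
Mean log2 signal of KIF11, KIF15 and KIF20A minus that of KIF5C and KIF21A in each cell by embryonic day; bars are means and open circles mark arrays of high median. The level of the axis is arbitrary. The E6 cells, from -9.15 to -3.39, lie below the E3 cells except for 1 E3 cell at -3.77.

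The E5 cells split by their KIF11 signal. E5 replicates 4 and 5 had KIF11 at 14.12 and 14.06 and KIF5C at the floor, with 8 and 7 of 9 markers of dividing cells detected and 1 and 2 of 10 neuronal markers. E5 replicates 1, 2 and 3 had KIF11 at 5.0, 6.04 and 5.0, with 3, 3 and 0 markers of dividing cells and 7, 8 and 8 neuronal markers. KIF5C was high in only 1 of these 3, at 12.98, and KIF21A in none of the 5, so neuronal markers were detected in E5 cells without KIF21A. E5 replicate 3 had KIF20B at 14.51 beside its 8 neuronal markers. The motor contrast was 3.04 and 3.02 in E5 replicates 4 and 5 and -1.33, -0.37 and 2.18 in E5 replicates 1, 2 and 3. On it E5 replicate 3 stood nearer to E5 replicates 4 and 5 than to E5 replicates 1 and 2. KIF20A, in its probe set of higher mean, was at the floor in E5 replicates 2, 4 and 5 and at 12.58 and 14.36 in E5 replicates 1 and 3. The other probe set of KIF20A went the other way, with 14.44 and 13.83 in E5 replicates 4 and 5. It had 5.0, 5.69 and 5.0 in E5 replicates 1, 2 and 3. The E7 cell had 8 of 9 markers of dividing cells and 0 of 10 neuronal markers detected. Its detected spindle kinesins were KIF4B, KIF23, KIF20B, KIF2C, KIF11 and KIF15, and KIF5C stood at 11.61 in the same cell.

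Cells with motors of both kinds detected were few or many depending on the pair, and such counts depend on how often each gene was detected. KIF11 was detected in 14 cells and KIF5C in 30, and both in 7 cells. At the 70th percentile of the array both were detected in 10 cells, and at the 90th in 1. Their signals correlated at r = -0.65 over the 41 cells and -0.73 over the 35 without the arrays of high median. KIF4B was detected in 19 cells, and KIF4B and KIF5C were both detected in 11 cells, or 16 and 4 at the 70th and 90th percentiles. KIF2A was detected in 30 cells, and KIF11 and KIF2A were both detected in 8 cells. KIF20A, in its probe set of higher mean, was detected with KIF5C in 21 of its 25 cells and correlated with KIF5C at 0.27. With KIF21A, detected in 20 cells, it was detected in 15. Within the spindle group, KIF11 correlated with KIF4B at 0.62, with KIF23 at 0.69 and with KIF20B at 0.62, but at 0.25 with KIF15 and at -0.42 with KIF20A. KIF5C correlated with KIF21A at 0.51, with KIF2A at 0.52, with KIF1BP at 0.60 and with KIF5B at 0.31. The points of these correlations share ages and array quality.

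Other genes of the same machinery were read from lists of known partners. Of 19 spindle partners on the array, such as kinases and midzone proteins, 15 were tested. Their slopes gave 0 adjusted calls by limma with 6 negative and 0 positive slopes at an unadjusted p under 0.05, against 1.16% and 3.52% of all probe sets. At E6, 11 of the 15 were at least 3 units below E3 and 0 above, against 3.02% and 5.89% of all, with a median difference of -4.25. RACGAP1, the partner of KIF23 in the central spindle, had the largest difference, -8.04, and PRC1, which bundles midzone microtubules with KIF4, had -4.62. Of 18 motor adaptors, 15 were tested, with 0 adjusted calls, 2 positive and 1 negative slope at an unadjusted p under 0.05 (3.52% and 1.16% of all probe sets). At E6, 4 of them were at least 3 units above E3 and 0 below (5.89% and 3.02% of all), and PAFAH1B1 (LIS1), a regulator of dynein, was highest at 7.84. KIFAP3, which ties cargo to kinesin-2, had 4.14. Of 16 genes for microtubules and proteins on axonal tracks, 15 were tested, with 0 adjusted calls, 5 positive and 1 negative slope at an unadjusted p under 0.05 (3.52% and 1.16% of all probe sets). At E6, 11 of these were at least 3 units above E3 and 0 below (5.89% and 3.02% of all), with a median of 4.95. The tubulin TUBB3 had 5.43, MAP6, which stabilises axonal microtubules, 9.67 and doublecortin (DCX) 4.95.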

How the data were processed

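Single cells had been amplified by oligo dT priming and PCR and put on an Affymetrix chicken array. Per the submitters' processing notes the authors used MAS5, and they deposited its signal as log2 values. The sources used here name no version. The trimmed mean of each array, with 2% off each end, was 500 to 500.2, and no scaling was added. Arrays give no counts, so the number of cells limits the precision. Values were floored at the table's median. The test kept probe sets detected (signal reaching the array's 80th percentile) in 3 cells or more and left out 96 controls. Genes were named through the platform annotation, where all 54 symbols matched RefSeq. The slope on embryonic day was fitted to 8 age means with limma 3.58.1 (R 4.3.3, eBayes with a trend, 6 residual and 78.7 prior degrees of freedom). The fit was also run on the same values with cells shuffled within each probe set and known slopes added. Shuffling removes differences in cell mix and array quality between ages, so that run cannot show how they affect the calls. The p-values of the slope measure the spread of age means around a line, which may be technical. The variance behind them is mostly shared among probe sets. Differences between ages were counted from 3 log2 units.

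The members, the genes of the contrast, the classes and the lists were chosen with earlier results of these data known. Named with values were the 5 genes of the contrast, genes with an unadjusted slope p under 0.05 or 3 log2 units apart in a step, the member of highest mean in each class, relatives of the contrast genes, and genes detected in at least 36 or at most 2 cells. Alternatives changed the floor, the normalization between arrays, the probe set, the weights, the filter, the cells and ages included, the age of E6 replicate 1, and the detection threshold. The series text speaks of 39 cells, and 41 were analysed.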

Additional observations from a re-analysis of the deposited data

Results flagged for a closer look

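Groups of 4 to 10 cells of 1 age were examined for the motor contrast and for single genes, 75 in all. In 18, each for a gene, the gap of a cell to its nearest other took more of the range than Dixon's 95% critical value. Groups with every cell at the floor were counted but could not be flagged. Chance marks about 1 in 20 groups, and cells at the floor make such gaps easy to reach. Among the spindle kinesins, KIF11 was highest in E6 replicate 7 (10.62) and in E9 replicate 1 (5.58), KIF15 in E3 replicate 6 (5.51) and E5 replicate 1 (5.38), and KIF23 in E5 replicate 5 (13.95) and E6 replicate 7 (9.79). E6 replicate 7 is an array of high median. Among the transport kinesins, KIF5C was highest in E5 replicate 1 (12.98) and lowest in E6 replicate 9 (5.0) and E14 replicate 1 (10.07). KIF21A was lowest in E6 replicate 4 (7.52). KIF5B was highest in E3 replicate 3 (8.56) and E14 replicate 7 (8.18) and lowest in E9 replicate 5 (5.0). Of the other genes, DYNC1I1 was highest in E3 replicate 6 (5.96), DYNLT3 in E9 replicate 5 (9.41) and KIF1BP in E3 replicate 5 (13.47). DYNLL2 was lowest in E14 replicate 1 (7.003) and DYNLT1 in E14 replicate 2 (5.0).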

How the results depend on the processing

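No paired analysis was possible because each age is 1 sample and cells of equal number at different ages come from different embryos. The 48 genes kept 0 adjusted calls under all alternatives but 1: without the E6 cells, 1 gene (KIF5C) rose. Over all probe sets the rising calls ran from 0 to 94, against 33, and the falling calls from 0 to 10, against 0. Counts of genes at least 3 log2 units apart moved as follows. With no floor, 11 were higher at E6 than E3, 2 at E9 than E6 and 1 at E14 than E9. With a floor at the 25th percentile, 1 was higher at E14 than E9. With a floor at the highest array median, 4 were higher at E6 than E3, 0 at E9 than E6, and 1 lower at E14 than E9. Quantile normalization left 2 lower at E14 than E9, and scaling to the 75th percentile gave 5 lower at E6 than E3 and 2 higher at E9 than E6. Averaging all probe sets of a gene left 3 higher at E6 than E3, 0 at E9 than E6 and 1 lower at E14 than E9. The contrast became -3.65 at E6 and -0.74 at E14 with all probe sets averaged, and -3.18 at E9 with the highest floor. At E9 it was -7.94 with the other KIF20A probe set and -7.92 without KIF20A, and at E3 it ran from 1.36 to 3.24 on leaving out 1 cell. The slope per day of KIF5C ran from 0.15 to 0.68. Leaving out 1 cell gave 2 to 5 genes lower at E6 than E3 (5 without E3 replicate 1, 4 or 5), 1 to 2 higher at E9 than E6 (2 without E9 replicate 4) and 2 to 6 lower at E14 than E9 (2 without E14 replicate 2). The slope per day of KIF15 changed sign to 0.018 with no floor and 0.0051 without E4, and the slope per day of KIF20A to -0.083 with all probe sets averaged and -0.019 with equal weights. The slope per day of KIF21A turned to 0.053 with no floor, 0.012 with the 25th percentile floor, 0.044 without the 6 arrays of high median, 0.138 without E6, 0.317 without E14, and 0.027 without E15, and leaving out 1 cell gave -0.0685 to 0.0020, positive only without E15 replicate 3. The causes were not tested. Signal near background limits KIF15, DYNLT3 and the other genes detected in few cells.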
